A study of Homo sapiens with 12 samples.

Results

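The heat shock and unfolded protein response genes described here are 35 chaperones, folding enzymes and stress sensors, taken by name from the platform annotation of the array, with the transcript cluster (the array's set of probes for a gene) of highest mean signal standing for each gene. A cluster annotated to that gene alone measured 34 of the 35, out of 18377 genes in all: 20 act in or signal from the endoplasmic reticulum (ER), 9 are cytosolic chaperones or cochaperones, 4 are mitochondrial chaperones, and 1 is HSF1, the transcription factor of the heat shock response. PDIA3, an ER disulphide isomerase, was covered only by 2 clusters shared with its pseudogene PDIA3P1, and was kept out of the tests. Its shared clusters averaged 11.83 and 11.79 (log2) in HCT116 mutant-only cells against 11.80 and 11.76 in HCT116 wild-type-only cells, and 11.95 and 11.90 in DLD1 mutant-only cells against 11.83 and 11.78 in DLD1 wild-type-only cells.

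When unfolded proteins build up in the ER, the membrane sensors ATF6, IRE1 (encoded by ERN1) and PERK (encoded by EIF2AK3) start the unfolded protein response: cleaved ATF6 and spliced XBP1 enter the nucleus and switch on ER chaperone and degradation genes through elements such as the ER stress response element. Misfolding in the cytosol instead releases HSF1, which binds heat shock elements in chaperone promoters. Mitochondria hold their own set, in which HSPD1 and HSPE1 form a folding chamber and HSPA9 pulls imported proteins in and folds them.

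HCT116 and DLD1 are epithelial colon cancer lines. In each, gene targeting had removed 1 allele of a PI3K catalytic subunit, a kinase of growth factor signalling, so that only the mutant or only the wild-type allele was left; the mutation is not the same in both lines. The 4 groups were HCT116 mutant-only, HCT116 wild-type-only, DLD1 mutant-only and DLD1 wild-type-only cells, each with 3 arrays numbered 1 to 3 and called biological replicates; all cells, whichever allele they kept, had spent 19 h in McCoy's medium with 0.5% serum. The labels describe 1 derived line for each genotype of each parent, so that a difference between genotypes cannot be told apart from a difference between derived lines, and p-values measure the spread between arrays of these lines.

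Values are the log2 expression values deposited for each array, on which a difference of 1 is a doubling, and they can be compared between arrays for 1 gene but not between genes. Array medians ran from 7.42 to 7.53, and arrays of a group correlated over all genes at 0.995 to 0.998. Of 10 epithelial markers 7 lay above the median gene on all 12 arrays, while VIL1 and LGALS4 lay below it on all 12, and CDH17 varied. Of 13 measured fibroblast, endothelial and leukocyte markers, 11 lay below the median gene on all 12 arrays, COL1A1 lay above it on all 12, and CD68 varied. Group means were compared with limma, and a gene was called at a Benjamini-Hochberg adjusted p, over all 18377 genes, under 0.05. The labels state no pairing of arrays. Deviations from the group means correlated at 0.129 to 0.462 in same-number pairs within a line, and at -0.321 to 0.17 between different numbers. In DLD1 wild-type-only replicate 2 correlated at 0.129 with mutant-only replicate 2 and at 0.17 with mutant-only replicate 1. A pairing by number is thus uncertain, in DLD1 above all. The fit with the number as a block is given beside a result where it changed the call.

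Chaperone genes of all 3 compartments were called higher in mutant-only than in wild-type-only DLD1 cells, by ratios of 1.15 to 1.29, in values taken as deposited. The mitochondrial calls were lost after quantile normalization, and both the mitochondrial and the cytosolic calls after cyclic loess. The RNA came from whole cultures, in which fewer cells of a kind and less RNA per cell cannot be told apart. Of the 34 genes, 31 had a log2 change above 0, and the median was 0.17 against -0.007 over all genes. By limma, 11 were called higher and 1 was called lower, against 5.66% of all genes called higher and 3.11% called lower. The 11 were the ER folding genes HSPA5, SDF2L1, DNAJB11, PDIA4 and CRELD2, the degradation factor HERPUD1, the transcription factor XBP1, the mitochondrial HSPA9 and TRAP1, and the cytosolic HSPA4 and HSPB1; the gene called lower was ATF6. With the replicate number as a block 15 were called higher and 1 lower, adding HYOU1, EIF2AK3, DNAJA1 and HSPH1. The block also raised the counts over all 18377 genes, from 1041 to 1621 higher and from 571 to 861 lower. The values of 19 genes did not overlap between genotypes with mutant-only cells higher, and those of 1 with them lower, against 15.6% and 12.7% of all genes. None of the 34 genes was among those under the 40th percentile of mean signal. With those dim genes left out, 981 of 11026 genes were called higher and 468 lower, with a median of 0.025. In that fit 13 of the 34 were called higher and 1 lower.

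In HCT116 the same comparison called 1 of the 34 genes higher, the ER chaperone HYOU1, and 1 lower, the mitochondrial chaperonin HSPD1, against 4.02% and 2.14% of all genes. The replicate block added HSPH1, lower, and over all genes it raised the counts from 738 to 1185 higher and from 394 to 623 lower. The median log2 change was -0.012, and 14 of the 34 genes were above 0. The values of 2 genes did not overlap with mutant-only cells higher and those of 5 with them lower, against 12.5% and 9.51% of all genes. The genotype effect itself differed between the lines for 7 genes: in HCT116 it was lower than in DLD1 for SDF2L1, DNAJB11, CRELD2, XBP1, HSPD1 and HSPH1 and higher for ATF6, against 3.43% and 3.68% of all genes called in those directions. With the replicate number as a block the differing genes numbered 11, adding EIF2AK3, HSPB1, DNAJB9 and HERPUD1, all lower in HCT116. Over all genes the block raised the counts of this test from 630 to 1041 lower and from 677 to 1036 higher. The genotype comparisons within the lines share no arrays in their means, but both take their spread from 1 fit over all 12 arrays. The test of the difference uses the arrays of both lines.

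**Figure D1:**
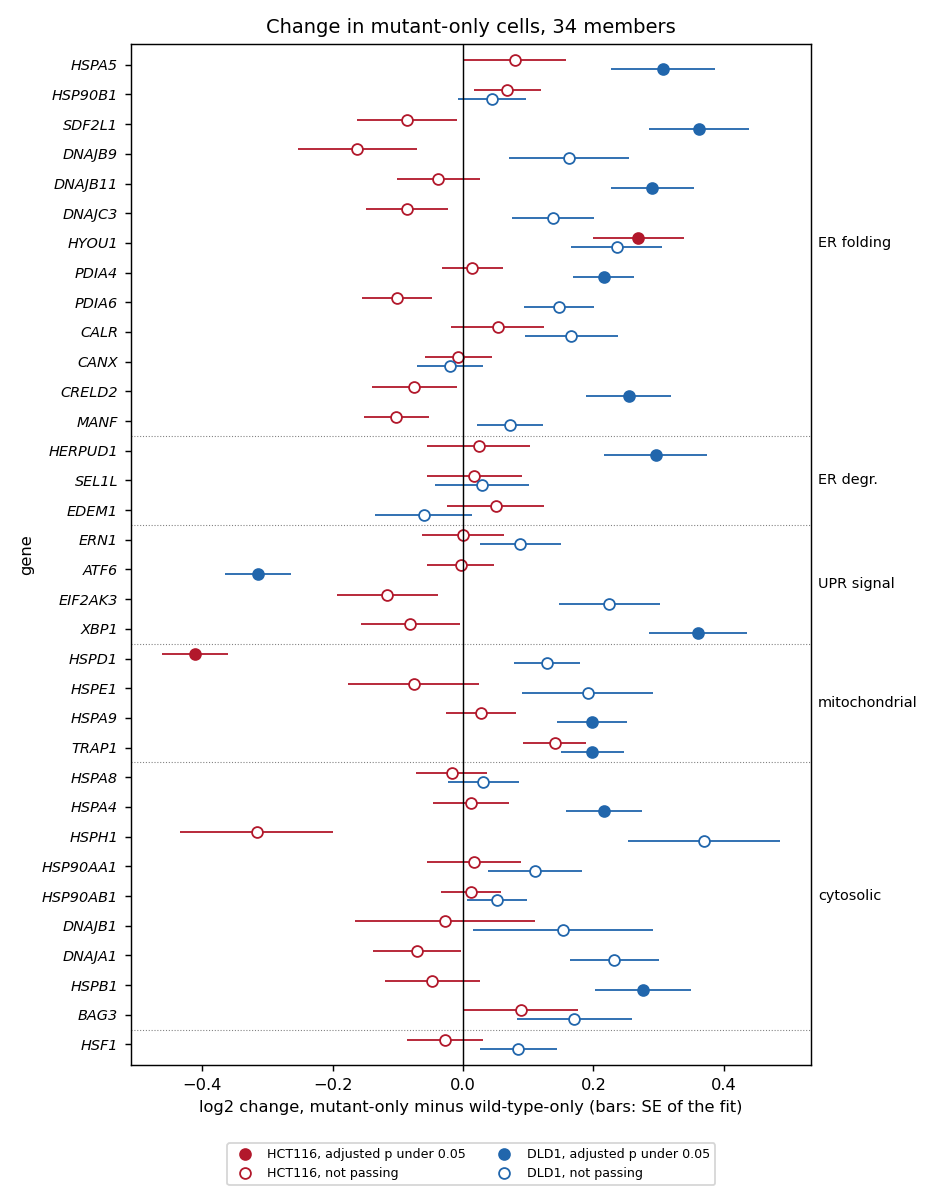
Log2 change, mutant-only minus wild-type-only, of the 34 measured genes in HCT116 and in DLD1, ordered by compartment, with bars for the standard error and filled points for genes called by limma. In DLD1 31 of the 34 points lie above 0 and 12 are filled, against 14 and 2 in HCT116.

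The size of the DLD1 count depended on scaling and on single arrays. The 11 genes called higher became 5 after quantile normalization (SDF2L1, DNAJB11, PDIA4, XBP1 and HSPB1) and 5 after cyclic loess (the same first 4 genes and CRELD2), and 17 after each array was centred on its median; 30 to 32 of the 34 genes were above 0 under these scalings. Over all genes, those called higher numbered 838 after quantile normalization, 990 after cyclic loess and 1671 after median centring, against 1041 before. Median centring also changed the split of all called genes in DLD1, of which 80.1% of 2087 were then higher, against 64.6% of 1612 before. The genes called higher numbered 5 when the first mutant-only DLD1 array was left out and 3 without the third, and they numbered 4, 6 and 7 without wild-type-only DLD1 array 1, 2 or 3. ATF6 was called lower in each of these fits, but without all arrays numbered 1 there were 0 members called in DLD1.

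HSPA5 encodes BiP, the ER Hsp70 that holds unfolded chains and keeps the stress sensors quiet. It read 12.63, 12.48 and 12.73 in mutant-only DLD1 cells, against 12.35, 12.16 and 12.41 in wild-type-only DLD1 cells. The 3 mutant-only arrays all lay above the 3 wild-type-only arrays, and the change was 0.31 (SE 0.080), a ratio of 1.24 (limma adjusted p = 0.0286). The HCT116 values were 12.39, 12.38 and 12.52 in mutant-only cells and 12.36, 12.26 and 12.43 in wild-type-only cells, groups that overlapped (change 0.08, adjusted p = 0.684). Array 3 held the highest HSPA5 value and array 2 the lowest in every one of the 4 groups. The DLD1 call was lost without mutant-only replicate 1 or 3 or wild-type-only replicate 1 or 2 (adjusted p 0.0658 to 0.12).

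The ER stress response element and its shorter variant, ERSE-II, lay in the promoters of 10 of the 20 measured ER genes. Promoter sequences were RefSeq's on GRCh38.p14, in windows of 250 bases before to 50 bases after each start site, available for 33 of the 35 genes. Both strands were searched for exact matches at the named bases. A gene without a motif thus had no exact match in its windows, and near matches were not counted. ERSE, searched as CCAAT and CCACG with any 9 bases between them, was found in CALR, CANX, CRELD2, HSP90B1, HSPA5, PDIA6 and XBP1, and in windows of 0.0916% of all 27305 genes. ERSE-II, searched as ATTGG and CCACG with any 1 base between them and so sharing the CCACG end with ERSE, was found in HERPUD1, HYOU1 and SDF2L1, and in 0.0696% of all genes. The XBP1-binding element TGACGTGG was found in HYOU1, where it overlaps an ERSE-II, and in 0.927% of all genes, and its core TGACGTG in HYOU1 and HSP90AB1 and in 2.4% of all genes. Neither ERSE nor ERSE-II was found in the windows of the 13 cytosolic and mitochondrial genes.

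The 250 bases before the start of 5 ER genes called higher in DLD1 are shown because these windows carry either element, in capitals, read 5′ to 3′ along the gene's own strand. They lie at chr9:125241344-125241593 (minus strand) for HSPA5, chr22:28800570-28800819 (minus strand) for XBP1, chr22:49918384-49918633 (plus strand) for CRELD2, chr22:21642052-21642301 (plus strand) for SDF2L1 and chr16:56931892-56932141 (plus strand) for HERPUD1. In CRELD2 and SDF2L1 the element is on the opposite strand and appears as its reverse complement.
HSPA5: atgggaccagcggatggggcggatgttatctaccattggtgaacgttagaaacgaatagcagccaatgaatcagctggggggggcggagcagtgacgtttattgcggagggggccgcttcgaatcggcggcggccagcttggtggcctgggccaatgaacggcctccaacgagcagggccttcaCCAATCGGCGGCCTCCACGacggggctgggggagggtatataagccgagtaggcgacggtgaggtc
XBP1: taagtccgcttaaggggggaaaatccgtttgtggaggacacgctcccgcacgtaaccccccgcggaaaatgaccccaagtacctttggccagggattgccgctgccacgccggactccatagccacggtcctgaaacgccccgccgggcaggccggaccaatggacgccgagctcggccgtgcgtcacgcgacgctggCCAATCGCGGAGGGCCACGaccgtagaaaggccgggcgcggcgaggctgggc
CRELD2: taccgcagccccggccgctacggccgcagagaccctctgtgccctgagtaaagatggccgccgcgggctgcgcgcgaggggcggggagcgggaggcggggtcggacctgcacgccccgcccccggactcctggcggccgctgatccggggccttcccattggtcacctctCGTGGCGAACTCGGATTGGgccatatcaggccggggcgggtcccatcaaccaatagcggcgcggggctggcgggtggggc
SDF2L1: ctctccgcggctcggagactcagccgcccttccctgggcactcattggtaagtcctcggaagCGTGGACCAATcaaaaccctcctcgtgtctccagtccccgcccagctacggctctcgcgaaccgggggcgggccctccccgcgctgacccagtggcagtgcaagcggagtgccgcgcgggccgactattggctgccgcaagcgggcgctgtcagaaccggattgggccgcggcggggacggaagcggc
HERPUD1: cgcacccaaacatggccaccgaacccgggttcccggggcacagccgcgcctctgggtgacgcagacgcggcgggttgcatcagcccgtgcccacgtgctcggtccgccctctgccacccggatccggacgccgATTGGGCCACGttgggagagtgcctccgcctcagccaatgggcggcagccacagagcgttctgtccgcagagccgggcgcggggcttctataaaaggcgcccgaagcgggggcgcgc
Counted from the start site, the element spans -66 to -48 in HSPA5, -52 to -34 in XBP1, -80 to -62 in CRELD2, -188 to -178 in SDF2L1 and -117 to -107 in HERPUD1. In DLD1 the 10 ER genes with either element had a median log2 change of 0.25, with 5 called higher and 0 lower by limma, and the 10 without had a median of 0.11, with 2 called higher and 1 lower. Over all genes the DLD1 median was -0.007, with 5.66% called higher and 3.11% lower. In HCT116 the medians were 0.009 with the element and -0.021 without it, with 1 gene (HYOU1) called in the first set and 0 in the second. Over all genes the HCT116 median was -0.001, with 4.02% called higher and 2.14% lower. The difference between the sets was not tested.

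BiP works with J-domain partners and with a set of smaller folding factors. SDF2L1, an ER protein that joins BiP and DNAJB11 in a chaperone complex, read 8.87, 8.52 and 8.77 in mutant-only DLD1 cells, against 8.34, 8.33 and 8.40 in wild-type-only DLD1 cells. Its groups did not overlap, and the change of 0.36 (SE 0.077), a ratio of 1.29, was the largest among the ER genes called in DLD1 by limma (adjusted p = 0.00972). In DLD1 SDF2L1 lost this call without all arrays numbered 1 (adjusted p = 0.216) or 3 (adjusted p = 0.0736). In HCT116 it read 8.24, 8.26 and 8.33 in mutant-only cells and 8.43, 8.35 and 8.30 in wild-type-only cells, and the effects differed by -0.45 (SE 0.108, adjusted p = 0.0228). That difference was lost without any 1 of 6 arrays, namely replicate 1 of each of the 4 groups, DLD1 mutant-only replicate 3 and DLD1 wild-type-only replicate 2 (adjusted p 0.0514 to 0.0584).

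DNAJB11 (ERdj3), a J-domain cochaperone that hands unfolded proteins to BiP, read 10.17, 10.05 and 10.22 in mutant-only DLD1 cells, against 9.89, 9.87 and 9.82 in wild-type-only DLD1 cells. The groups stood apart, with a change of 0.29 (SE 0.064, limma adjusted p = 0.0119) that was lost without mutant-only replicate 3 (adjusted p = 0.0566). DNAJB11 also lost this call without all arrays numbered 1 (adjusted p = 0.166) or 3 (adjusted p = 0.132). Its HCT116 values overlapped, at 9.63, 9.79 and 9.63 in mutant-only cells and 9.64, 9.79 and 9.73 in wild-type-only cells. The effects differed by -0.33 (adjusted p = 0.0437), a call lost without any 1 of 9 arrays (adjusted p 0.0717 to 0.108), the exceptions being DLD1 mutant-only replicate 2, HCT116 mutant-only replicate 2 and HCT116 wild-type-only replicate 1.

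CRELD2, a secreted and ER-resident stress-induced protein, read 9.061, 8.804 and 9.004 in mutant-only DLD1 cells, against 8.73, 8.70 and 8.68 in wild-type-only DLD1 cells. All mutant-only values were the higher, by 0.25 on average (SE 0.065, limma adjusted p = 0.0272). In HCT116 the order was the opposite, with 8.50, 8.39 and 8.51 in mutant-only cells and 8.52, 8.52 and 8.59 in wild-type-only cells, and a change that was not called (-0.07, adjusted p = 0.624). The effects differed by -0.33 (adjusted p = 0.048), but this call was lost without any 1 of 11 arrays, all but DLD1 mutant-only replicate 2 (adjusted p 0.0572 to 0.12), as well as after quantile normalization (adjusted p = 0.0587) and with limma-trend and a robust prior (adjusted p = 0.056). The DLD1 call was lost without mutant-only replicate 1 or 3 or any 1 wild-type-only array (adjusted p 0.0613 to 0.125).

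Of the disulphide isomerases, which form and rearrange disulphide bonds in the ER, PDIA4 was called in DLD1. It read 11.64, 11.60 and 11.68 in mutant-only DLD1 cells, against 11.43, 11.38 and 11.46 in wild-type-only DLD1 cells. The change was 0.22 (SE 0.047, limma adjusted p = 0.0114), lost only without mutant-only replicate 3 among the single arrays (adjusted p = 0.0506). PDIA4 also lost this call without all arrays of any 1 number (adjusted p 0.061 to 0.21). Its HCT116 values were 11.56, 11.59 and 11.57 in mutant-only cells and 11.52, 11.59 and 11.57 in wild-type-only cells. PDIA6 was not called in either line, at 0.15 in DLD1 (adjusted p = 0.116) and -0.10 in HCT116 (adjusted p = 0.349), although its genotype groups overlapped in neither.

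HYOU1 (Grp170), the large ER Hsp70 relative that exchanges nucleotide on BiP, was the ER gene called in HCT116. It read 9.92, 9.92 and 9.84 in mutant-only HCT116 cells, against 9.65, 9.68 and 9.54 in wild-type-only HCT116 cells. These groups did not overlap, and the change was 0.27 (SE 0.070), a ratio of 1.20 (limma adjusted p = 0.0376). Mutant-only DLD1 cells, at 10.17, 9.93 and 9.94, also lay above wild-type-only DLD1 cells, at 9.83, 9.81 and 9.70, by 0.24 (adjusted p = 0.0533, and 0.0165 with the replicate block). HYOU1 effects in the lines differed by 0.03 (SE 0.099, adjusted p = 0.927). Leaving out any 1 HCT116 array, or DLD1 wild-type-only replicate 1, ended the HCT116 call (adjusted p 0.0533 to 0.12), and after quantile normalization (adjusted p = 0.0575) or cyclic loess (adjusted p = 0.0656).

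The remaining ER folding genes were not called in either line. HSP90B1 (Grp94), the ER Hsp90, read 12.96, 12.85 and 12.87 in mutant-only DLD1 cells and 12.89, 12.87 and 12.78 in wild-type-only DLD1 cells. It read 12.93, 12.91 and 12.85 in mutant-only HCT116 cells and 12.82, 12.87 and 12.79 in wild-type-only HCT116 cells, so that its groups overlapped in both lines. Calreticulin and calnexin, the lectin chaperones that fold glycoproteins, changed by 0.17 (CALR, adjusted p = 0.188) and -0.02 (CANX, adjusted p = 0.865) in DLD1. DNAJB9, DNAJC3 and MANF changed by 0.16, 0.14 and 0.07 in DLD1 and by -0.16, -0.09 and -0.10 in HCT116, with adjusted p between 0.214 and 0.534 in limma.

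**Figure D2:**
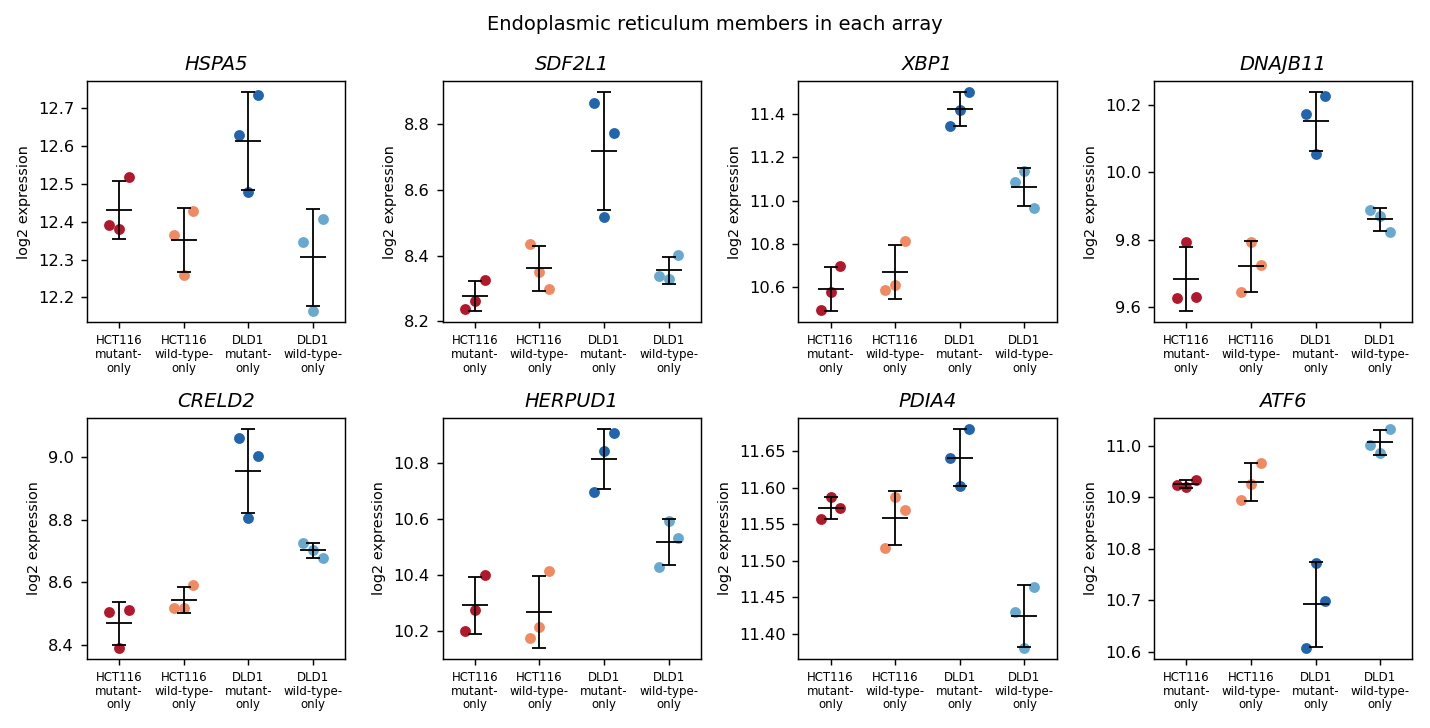
Log2 expression in each of the 12 arrays for ER genes and sensors, 1 panel a gene, with mutant-only left of wild-type-only in each line and bars for the mean and SD of 3 arrays. In DLD1 the mutant-only points of HSPA5 (12.48 to 12.73) lie above the wild-type-only points (12.16 to 12.41), and those of ATF6 (10.61 to 10.77) lie below theirs (10.99 to 11.03).

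Among the factors that send misfolded ER proteins to the proteasome, HERPUD1, a membrane scaffold of the ubiquitin ligase complex, was called. It read 10.70, 10.84 and 10.90 in mutant-only DLD1 cells, against 10.43, 10.59 and 10.53 in wild-type-only DLD1 cells. The groups did not overlap, and the change was 0.30 (SE 0.079), a ratio of 1.23 (limma adjusted p = 0.0335). It was lost without mutant-only replicate 2 or 3 or wild-type-only replicate 1 or 3 (adjusted p 0.0738 to 0.142). The HCT116 values of HERPUD1 were 10.20, 10.28 and 10.40 in mutant-only cells and 10.18, 10.21 and 10.42 in wild-type-only cells. SEL1L, the adaptor of the same complex, changed by 0.03 in DLD1 (adjusted p = 0.865), and EDEM1, a lectin that marks misfolded glycoproteins, by -0.06 (adjusted p = 0.701).

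The transcripts of the XBP1 and ATF6 transcription factors moved in opposite directions in DLD1. XBP1, whose messenger is spliced by IRE1 to yield the active factor, read 11.35, 11.42 and 11.50 in mutant-only DLD1 cells, against 11.09, 11.14 and 10.97 in wild-type-only DLD1 cells. The change of 0.36 (SE 0.076), a ratio of 1.28 (limma adjusted p = 0.00936), was kept whichever single array was left out, but lost without all arrays numbered 1 (XBP1 adjusted p = 0.082) or 2 (adjusted p = 0.0711). In HCT116 it read 10.50, 10.57 and 10.70 in mutant-only cells and 10.59, 10.61 and 10.81 in wild-type-only cells, which overlapped. The effects differed by -0.44 (SE 0.107, adjusted p = 0.0231), lost without DLD1 mutant-only replicate 3, DLD1 wild-type-only replicate 3 or HCT116 mutant-only replicate 1 (adjusted p 0.0544 to 0.0624). A gene-level value does not tell the spliced and unspliced XBP1 messengers apart.

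ATF6 went the other way. It read 10.61, 10.77 and 10.70 in mutant-only DLD1 cells, against 11.001, 10.986 and 11.034 in wild-type-only DLD1 cells. Every mutant-only value was below every wild-type-only value, and the change was -0.31 (SE 0.051), a ratio of 0.804 (limma adjusted p = 0.00165), kept whichever single array was left out but lost without all arrays numbered 1 (ATF6 adjusted p = 0.104). In HCT116 the values were 10.92, 10.92 and 10.93 in mutant-only cells and 10.89, 10.93 and 10.97 in wild-type-only cells, a change of -0.004 (adjusted p = 0.984). Between the lines the effects differed by 0.31 (SE 0.072, adjusted p = 0.018), a call kept whichever single array was left out but lost when all arrays of any 1 number were (adjusted p 0.0892 to 0.331).

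The other sensors were not called. EIF2AK3, the kinase that slows translation, read 8.71, 8.61 and 8.77 in mutant-only DLD1 cells, against 8.47, 8.46 and 8.50 in wild-type-only DLD1 cells. Its groups stood apart with a change of 0.22 (limma adjusted p = 0.098, and 0.0172 with the replicate block). In HCT116 it changed by -0.12 (adjusted p = 0.487), and the effects differed by -0.34 (adjusted p = 0.0879, and 0.0136 with the block). ERN1 changed by 0.09 in DLD1 (adjusted p = 0.455).

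HSPD1 (Hsp60), the mitochondrial chaperonin, gave the largest change of the 34 genes in HCT116. It read 12.11, 12.02 and 12.05 in mutant-only HCT116 cells, against 12.50, 12.45 and 12.47 in wild-type-only HCT116 cells. The groups were separated by more than the range within either, and the change was -0.41 (SE 0.051), a ratio of 0.752 (limma adjusted p = 0.000257). In DLD1 it read 12.49, 12.44 and 12.59 in mutant-only cells and 12.41, 12.36 and 12.37 in wild-type-only cells, a change of 0.13 that was not called (adjusted p = 0.15). Between the lines the HSPD1 effects differed by -0.54 (SE 0.072, adjusted p = 0.000437). Both calls were kept in all alternative fits, 24 for the HCT116 change and 23 for the difference. The HCT116 change ran from -0.43 to -0.39 in these fits. They are not independent checks, because some, such as those without a DLD1 array, left the HCT116 change as it was.

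HSPE1 (Hsp10), the lid of the same folding chamber, was not called in either line. It read 9.47, 9.31 and 9.21 in mutant-only HCT116 cells, against 9.35, 9.50 and 9.36 in wild-type-only HCT116 cells. These groups overlapped, and the change was -0.08 (SE 0.101, limma adjusted p = 0.773). In DLD1 it read 9.41, 9.11 and 9.49 in mutant-only cells and 9.05, 9.30 and 9.09 in wild-type-only cells (change 0.19, adjusted p = 0.289). The difference between the changes of these genes was not tested, because different probes measured them.

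HSPD1 and HSPE1 are neighbours on chromosome 2 that are read in opposite directions from starts 105 bases apart in RefSeq (GRCh38.p14). The bases between the starts, at chr2:197500275-197500378 on the plus strand, read from HSPD1 towards HSPE1, are shown because both genes share them. They hold no heat shock element as searched here, GAA, TTC and GAA with any 2 bases between neighbours, on either strand. HSPD1 has a further start, 539 bases from that of HSPE1, and the window before it holds 2 overlapping elements, at -245 to -233 and -240 to -228, shown in capitals on the minus strand (chr2:197500063-197500090). These elements also lie between that further start and the HSPE1 start, but outside the HSPE1 window, which begins at chr2:197500129. Their absence from the HSPE1 window thus depends on the window length.
HSPD1 to HSPE1: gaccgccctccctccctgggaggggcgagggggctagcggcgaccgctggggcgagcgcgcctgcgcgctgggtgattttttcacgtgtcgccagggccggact
HSPD1 heat shock elements: gcattTTCTGGAAAGTTCTGGAAccgag
As an exact match, the heat shock element was found for DNAJA1, HSP90AA1, HSP90AB1, HSPA8 and HSPD1, 5 of the 13 cytosolic and mitochondrial genes. It was found for 0 of the 20 ER genes and for 0.608% of all genes. Of these 5, HSPD1, lower in HCT116, was the 1 called in a genotype comparison without the replicate block. Over all genes 4.02% were called higher and 2.14% lower in HCT116, and 5.66% and 3.11% in DLD1. With the block DNAJA1 was also called, higher in DLD1 (limma adjusted p = 0.0334), where the block called 1621 of 18377 genes higher.

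HSPA9 (mortalin), the mitochondrial Hsp70, read 12.55, 12.45 and 12.53 in mutant-only DLD1 cells, against 12.30, 12.35 and 12.29 in wild-type-only DLD1 cells. Its groups did not overlap (change 0.20, SE 0.054, limma adjusted p = 0.0366), but the call was lost without mutant-only replicate 1 or 3 of DLD1, any 1 DLD1 wild-type-only array or HCT116 mutant-only replicate 1 (adjusted p 0.0509 to 0.135). Its values overlapped in HCT116, at 12.28, 12.18 and 12.28 in mutant-only cells and 12.15, 12.29 and 12.22 in wild-type-only cells.

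TRAP1, the mitochondrial Hsp90, read 11.65, 11.59 and 11.53 in mutant-only DLD1 cells, against 11.34, 11.38 and 11.45 in wild-type-only DLD1 cells. The change was 0.20 (SE 0.049, limma adjusted p = 0.0219), lost without replicate 1 or 2 of either DLD1 group (adjusted p 0.0573 to 0.103). In HCT116 it read 12.0329, 12.0004 and 12.0468 in mutant-only cells and 11.89, 11.88 and 11.89 in wild-type-only cells, a change of 0.14 without overlap that was not called (adjusted p = 0.122). A second TRAP1 cluster, with signal near the array median, went the other way, by -0.19 in DLD1 and -0.10 in HCT116. With the mean of both clusters the DLD1 change was 0.002 (adjusted p = 0.991), so the direction for TRAP1 depends on the cluster.

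Of the 9 cytosolic genes all had a change above 0 in DLD1, with a median of 0.17, and 2 were called, both higher. Over all 18377 genes 8699 were above 0, the median was -0.007 and 5.66% were called higher. HSPB1 (Hsp27), a small heat shock protein that holds unfolding proteins without ATP, read 13.45, 13.44 and 13.50 in mutant-only DLD1 cells, against 13.15, 13.05 and 13.37 in wild-type-only DLD1 cells. The wild-type-only values were the more spread, and the change was 0.28 (SE 0.073), a ratio of 1.21 (limma adjusted p = 0.0318), lost without any 1 DLD1 mutant-only array or wild-type-only replicate 1 or 2 (adjusted p 0.0678 to 0.115). It overlapped in HCT116, at 13.40, 13.33 and 13.48 in mutant-only cells and 13.50, 13.39 and 13.46 in wild-type-only cells. The effects differed by -0.32 (adjusted p = 0.085, and 0.0302 with the replicate block).

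HSPA4, an Hsp110-type nucleotide exchange factor for Hsp70, read 11.30, 11.21 and 11.22 in mutant-only DLD1 cells, against 11.05, 11.10 and 10.93 in wild-type-only DLD1 cells. The change of 0.22 (SE 0.059, limma adjusted p = 0.0357) was lost without any 1 DLD1 mutant-only array or wild-type-only replicate 1 or 3 (adjusted p 0.0612 to 0.141). In HCT116 it read 10.99, 10.94 and 10.90 in mutant-only cells and 10.98, 10.96 and 10.85 in wild-type-only cells, a change of 0.01.

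HSPH1 (Hsp105), the other Hsp110-type gene here, had changes of opposite sign in the lines. It read 10.61, 10.56 and 10.83 in mutant-only HCT116 cells, against 10.99, 10.88 and 11.08 in wild-type-only HCT116 cells, and 11.86, 11.40 and 11.89 in mutant-only DLD1 cells, against 11.37, 11.24 and 11.43 in wild-type-only DLD1 cells. The HCT116 groups did not overlap, while in DLD1 mutant-only replicate 2 lay within the wild-type-only range. Neither change was called by limma, at -0.32 in HCT116 (adjusted p = 0.147) and 0.37 in DLD1 (adjusted p = 0.0693), but their difference was, at -0.69 (SE 0.165, adjusted p = 0.0223). Array 3 held the highest and array 2 the lowest HSPH1 value in every group, and with the replicate block the HCT116 change (adjusted p = 0.0142), the DLD1 change (adjusted p = 0.00509) and the difference (adjusted p = 0.00123) were called. Without the block the difference was lost without any 1 of 6 arrays, namely DLD1 mutant-only replicate 1 or 3, DLD1 wild-type-only replicate 2, HCT116 mutant-only replicate 1 or 2 and HCT116 wild-type-only replicate 3 (adjusted p 0.0529 to 0.0607).

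The cytosolic HSPA8 and Hsp90 genes were not called in either genotype comparison. HSPA8 (Hsc70), the constitutive Hsp70, read 13.85, 13.84 and 13.94 in mutant-only DLD1 cells and 13.83, 13.82 and 13.87 in wild-type-only DLD1 cells. It read 13.66, 13.66 and 13.80 in mutant-only HCT116 cells and 13.67, 13.72 and 13.78 in wild-type-only HCT116 cells, with overlap in both lines. HSP90AA1, the stress-inducible cytosolic Hsp90, read 13.16, 13.07 and 12.98 in mutant-only DLD1 cells and 13.03, 12.99 and 12.86 in wild-type-only DLD1 cells (change 0.11, limma adjusted p = 0.403). It also overlapped in HCT116, at 13.16, 13.17 and 12.97 in mutant-only cells and 13.11, 13.14 and 12.99 in wild-type-only cells. HSP90AB1, the constitutive Hsp90, changed by 0.05 in DLD1 (adjusted p = 0.566).

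The J-domain gene DNAJA1 changed by 0.23 in DLD1, with no overlap (limma adjusted p = 0.0505, and 0.0334 with the replicate block). BAG3, a cochaperone that hands Hsp70 clients to autophagy, changed by 0.17 in DLD1 (adjusted p = 0.281) and 0.09 in HCT116. DNAJB1 (Hsp40), the heat-inducible partner of Hsp70, had SDs of 0.18 to 0.23 in the 4 groups, with array 3 the highest in each, and changed by 0.15 in DLD1 (adjusted p = 0.57). The same array number held the highest value in all 4 groups for 7 of the 34 genes (20.6%), number 3 each time, against 15.2% of all genes with any 1 number.

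HSF1 read 9.79, 9.71 and 9.73 in mutant-only DLD1 cells and 9.63, 9.60 and 9.74 in wild-type-only DLD1 cells, and 10.10, 9.99 and 10.14 in mutant-only HCT116 cells and 10.17, 10.04 and 10.10 in wild-type-only HCT116 cells. Its genotype groups overlapped in both lines (change 0.08 in DLD1, limma adjusted p = 0.441, and -0.03 in HCT116, adjusted p = 0.87).

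**Figure D3:**
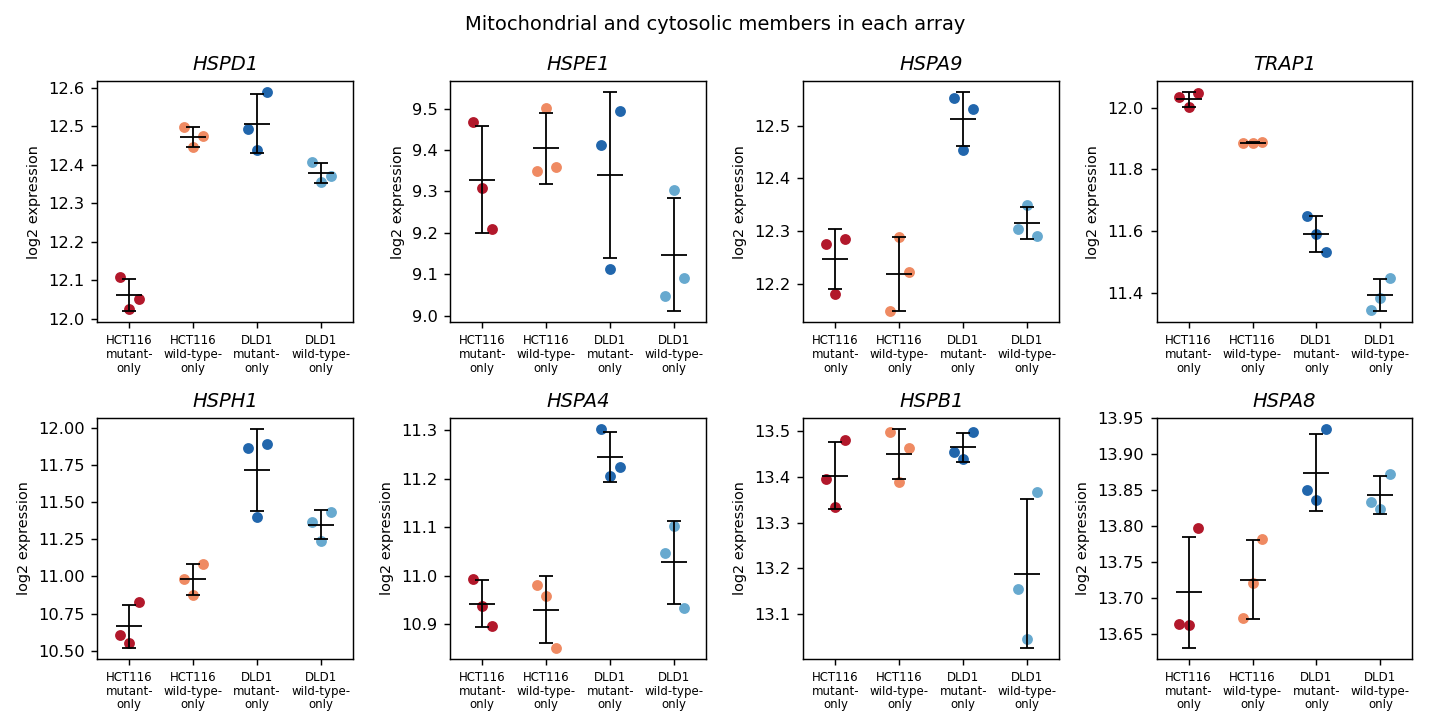
Log2 expression in each array for 4 mitochondrial genes (HSPD1, HSPE1, HSPA9, TRAP1) and 4 cytosolic genes (HSPH1, HSPA4, HSPB1, HSPA8), with mutant-only left of wild-type-only in each line and bars for the mean and SD of 3 arrays. HSPD1 in mutant-only HCT116 cells, at 12.02 to 12.11, lies below the other 3 groups, whose values run from 12.36 to 12.59.

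The median of each compartment lay above the wild-type-only mean on every mutant-only DLD1 array, in values that were not tested. Relative to the wild-type-only mean of each gene, the median over the 20 ER genes was 0.16, 0.10 and 0.21 in mutant-only DLD1 arrays 1, 2 and 3, over the 9 cytosolic genes 0.20, 0.11 and 0.20, and over the 4 mitochondrial genes 0.25, 0.10 and 0.21. Array 2 had the smallest median in each compartment, and over all genes the medians of these 3 arrays ran from -0.013 to 0.005. In mutant-only HCT116 cells the ER medians were -0.04, -0.01 and 0.01, the cytosolic medians -0.06, -0.04 and 0.02 and the mitochondrial medians 0.06, -0.07 and -0.07. By count, 7 of 20 ER genes were called higher and 1 lower in DLD1, 2 of 9 cytosolic genes higher and 2 of 4 mitochondrial genes higher, against 5.66% and 3.11% of all genes called higher and lower; 1 of these 2 mitochondrial genes is TRAP1, whose clusters disagree. After quantile normalization no mitochondrial gene was called higher, and after cyclic loess no mitochondrial or cytosolic gene was. The compartments were not tested against each other.

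Between the lines, more of these genes were lower than higher in HCT116 when mutant-only cells were compared. In mutant-only cells, HCT116 minus DLD1, limma called 6 of the 34 genes higher in HCT116 and 17 lower, against 24.3% and 26.3% of all genes, and the median difference was -0.17. In wild-type-only cells 10 were called higher and 8 lower, against 23.3% and 25.5% of all genes, with a median of -0.007. With the replicate block the counts were 6 and 19 in mutant-only cells, adding HSPA5 (adjusted p = 0.00475) and DNAJB1 (adjusted p = 0.00371), both lower in HCT116. In wild-type-only cells they were 10 and 11 with the block, adding HSP90AA1 as higher (adjusted p = 0.037) and HSPA8, CRELD2 and HYOU1 as lower (adjusted p 0.0287 to 0.0344), while HSPE1 was lost (adjusted p = 0.0569). Over all genes the block called 4909 higher and 5189 lower in mutant-only cells, against 4468 and 4837 without it. In wild-type-only cells it called 4758 higher and 5028 lower, against 4282 and 4680. Centring each array on its median made the counts of members 3 and 20 in mutant-only cells and 6 and 12 in wild-type-only cells. Over all genes the centring made 37.0% of called genes higher in HCT116, against 48.0% before, in mutant-only cells. Called in the same direction in both genotypes were 5 genes higher in HCT116 (SEL1L, TRAP1, HSP90AB1, DNAJA1 and HSF1) and 8 lower (DNAJC3, PDIA6, CALR, HERPUD1, EDEM1, XBP1, HSPH1 and BAG3). The comparisons between lines and within lines share arrays and are not independent.

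Among the 34 genes EDEM1 had the largest line difference in wild-type-only cells. It read 7.58, 7.75 and 7.72 in mutant-only HCT116 cells, against 8.64, 8.69 and 8.65 in mutant-only DLD1 cells, and 7.47, 7.64 and 7.79 in wild-type-only HCT116 cells, against 8.79, 8.67 and 8.71 in wild-type-only DLD1 cells. The lines did not overlap in either genotype, with differences of -0.98 and -1.09, ratios of 0.507 and 0.470 (limma adjusted p = 7.08e-08 and 2.42e-08). HSPH1 differed by -1.05 in mutant-only cells (adjusted p = 3.42e-06) and -0.37 in wild-type-only cells (adjusted p = 0.018), XBP1 by -0.83 (adjusted p = 4.59e-07) and -0.39 (adjusted p = 0.000573), and PDIA6 by -0.78 (adjusted p = 2.62e-08) and -0.53 (adjusted p = 1.37e-06). TRAP1 was higher in HCT116 by 0.44 in mutant-only and 0.50 in wild-type-only cells, and HSF1 by 0.33 and 0.45.

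**Figure D4:**
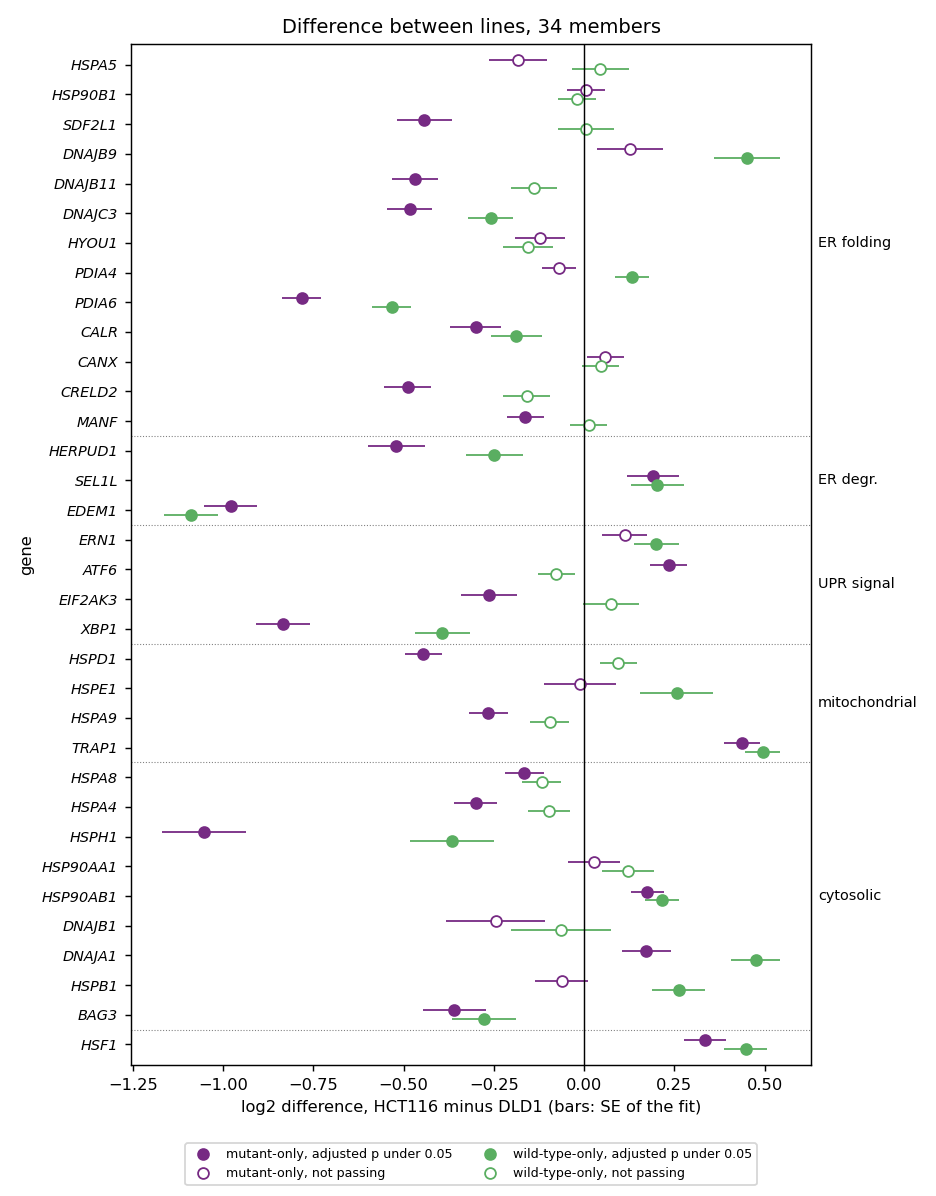
Log2 difference, HCT116 minus DLD1, of the 34 genes in mutant-only and in wild-type-only cells, with bars for the standard error and filled points for genes called by limma. In mutant-only cells 6 filled points lie right of 0 and 17 left of it, and in wild-type-only cells 10 and 8, with EDEM1 at -0.98 and -1.09.

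The other genes of these pathways were listed by role, 140 in all, of which 130 were measured. In DLD1 26 were called higher and 2 lower, with a median change of 0.10 and 109 of 130 above 0, against 5.66% of all genes called higher and 3.11% called lower. In HCT116 2 were called higher and 1 lower, with a median of -0.003, against 4.02% and 2.14% of all genes. The difference between the lines was called for 13 genes, 12 of them lower in HCT116 and 1 higher, against 3.43% and 3.68% of all genes.

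Among 28 other ER folding and translocation genes, 4 were called higher in DLD1 and 0 lower, against 5.66% and 3.11% of all genes. ERO1B, an oxidase that recharges the disulphide isomerases, read 8.33, 8.26 and 8.25 in mutant-only DLD1 cells, against 7.53, 7.45 and 7.64 in wild-type-only DLD1 cells. These groups did not overlap. It changed by 0.74 in DLD1 (limma adjusted p = 8e-06) and -0.20 in HCT116 (adjusted p = 0.0855), and the effects differed by -0.94 (adjusted p = 2.5e-05). SEC61B, a subunit of the channel through which proteins enter the ER, changed by 0.53 in DLD1 (adjusted p = 0.000103) and -0.08 in HCT116, and HSPA13, a microsomal Hsp70, by 0.32 in DLD1 (adjusted p = 0.00786). Of 19 other degradation genes 1 was called higher in DLD1, NGLY1, which strips glycans from proteins leaving the ER (0.29, adjusted p = 0.00387), and 1 lower in HCT116, the ubiquitin-conjugating enzyme UBE2J1 (-0.18, adjusted p = 0.0357); 1 gene of 19 is near the share of all genes called higher in DLD1 (5.66%) and of those called lower in HCT116 (2.14%).

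Among 19 other genes of unfolded protein response signalling, 6 were called higher and 2 lower in DLD1, against 5.66% and 3.11% of all genes. The highest were CHAC1 (0.70, limma adjusted p = 0.0195), a glutathione-degrading target of the PERK branch, QRICH1 (0.53, adjusted p = 0.00123), a transcriptional regulator of that branch, and DDIT3 (0.52, adjusted p = 0.0231), which encodes CHOP. CHAC1 read 10.22, 10.23 and 10.17 in mutant-only DLD1 cells, against 9.41, 9.91 and 9.21 in wild-type-only DLD1 cells. These groups did not overlap. DDIT3 ran from 8.99 to 9.40 in mutant-only DLD1 cells, against 8.44 to 8.86 in wild-type-only DLD1 cells. The 2 called lower were ERN2, the epithelial paralogue of ERN1 (-0.31, adjusted p = 0.00467), and WFS1, an ER membrane protein (-0.30, adjusted p = 0.0385). In HCT116 CREB3, a membrane-bound transcription factor related to ATF6, was the 1 gene of this list called, higher (0.28, adjusted p = 0.0168), against 4.02% of all genes.

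Among 29 other heat shock genes, most of them cytosolic, 5 were called higher in DLD1 and 0 lower, against 5.66% and 3.11% of all genes. The highest were HSPA4L, an Hsp110-type gene (0.66, limma adjusted p = 0.000222), FKBP4, a cochaperone of Hsp90 (0.56, adjusted p = 0.0017), and CHORDC1, which binds Hsp90 (0.54, adjusted p = 0.000392). HSPA4L read 10.25, 10.12 and 10.43 in mutant-only DLD1 cells, against 9.64, 9.55 and 9.62 in wild-type-only DLD1 cells. These groups did not overlap. SERPINH1, a heat-inducible collagen chaperone of the ER, was the 1 gene of that list called in HCT116 (0.47, adjusted p = 0.0464), near the 4.02% of all genes called higher there. All 14 subunits of the TRiC chaperonin and of prefoldin, which fold actin and tubulin, were above 0 in DLD1 with a median of 0.14, and 4 were called higher, against 5.66% of all genes, led by CCT3 (0.25, adjusted p = 0.0216). Among 21 other mitochondrial chaperones, proteases and import factors, 6 were called higher in DLD1 and 0 lower, against 5.66% and 3.11% of all genes, led by the import factors TIMM44 (0.34, adjusted p = 0.0212) and TIMM17A (0.33, adjusted p = 0.0212) and the protease LONP1 (0.33, adjusted p = 0.017).

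**Figure D5:**
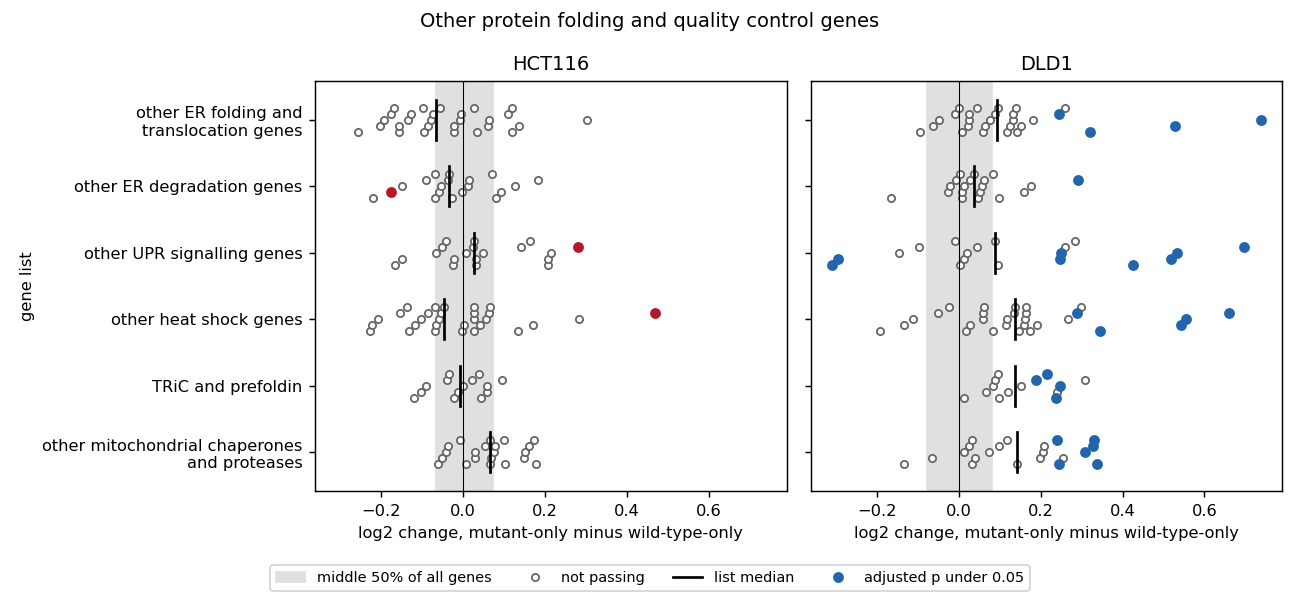
Log2 change, mutant-only minus wild-type-only, of the other 130 measured genes by list in HCT116 and DLD1, with a bar at each list's median, filled points for genes called by limma and a grey band for the middle 50% of all genes. In DLD1 28 points are filled, 26 of them right of 0, against 3 in HCT116.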

How the data were processed

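RNA of 12 cultures was hybridised to Affymetrix HuGene 1.0 ST arrays, from 500 ng of total RNA per the labels' protocols. The values for 28869 transcript clusters are log2 expression as the authors deposited it, taken without further scaling. How they corrected, summarised and normalized the signal is not given in the sources. Signal over background could not be judged, for want of detection values, and precision is limited by the number of arrays. Values of the targeted gene itself are left out.

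Clusters were named through the platform annotation, with symbols updated by gene identifier (19279 of 19310 clusters with 1 symbol matched). The tests left out 1752 clusters with several symbols and 7807 with none. A gene with several clusters (685 genes) was represented by that of highest mean, giving 18377 genes. A model of 4 group means over all 12 arrays was fitted by limma 3.58.1 (lmFit, eBayes) under R 4.3.3, with 8 residual and 5.17 prior degrees of freedom. It was used to compare mutant-only with wild-type-only cells of each line, the difference of these effects, and HCT116 minus DLD1 in each genotype, two-sided, with Benjamini-Hochberg adjustment over all genes and calls at 0.05. The code was tested on simulated data.

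The members and lists were chosen with earlier results of these data known. Values in every array are given for members called in a genotype contrast or in the difference and for HSPA5, HSPA8, HSPA9, HSP90B1, HSP90AA1, TRAP1, XBP1 and HSF1, and of each other list at most the 3 highest and 3 lowest called genes per genotype contrast are named. PDIA6, EIF2AK3 and EDEM1, and the other members given with a change only, were named because every member is accounted for. Per-array values of EIF2AK3, EDEM1, ERO1B, CHAC1 and HSPA4L and the range of DDIT3 were chosen with those values in view.

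Arrays carry numbers 1 to 3 in each group, and the labels state no pairing. Deviations from the group means correlated at 0.129 to 0.462 in all 6 same-number pairs within a line, above the minimum of 0.1, against -0.321 to 0.17 between different numbers. The 6 same-number pairs of a genotype between the lines correlated at 0.114 to 0.407. All 12 same-number pairs between the lines ran from 0.0657 to 0.4714, and the 24 pairs of different numbers from -0.4127 to 0.1905. The ranges thus overlapped, within and between lines. The numbers were treated as a possible pairing. A fit with that number as a block was made beside the main fit, with 4 residual degrees of freedom in the genotype comparisons and their difference. Promoter windows came from RefSeq (GRCh38.p14), 250 bases before to 50 from the start site on, for 33 members; a gene counted as holding a motif when any of its windows did. Also tried were averaging a gene's clusters, dropping dim genes (mean signal under the 40th percentile), normalization by quantiles, median centring or cyclic loess, fitting only the groups compared, array weights, limma-trend with a robust prior, and leaving out each array or all arrays of a number.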

Additional observations from a re-analysis of the deposited data

Results flagged for a closer look

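For 7 of the 34 genes the genotype effect differed between the lines in the test of the difference itself (HCT116 effect minus DLD1 effect, limma). For HSPD1 the difference was -0.54, from a lower value in mutant-only HCT116 cells that had no counterpart called in DLD1. For HSPH1 it was -0.69, with changes of opposite sign that were not called singly. For SDF2L1 it was -0.45, for XBP1 -0.44, for CRELD2 -0.33 and for DNAJB11 -0.33, each with a change called higher in DLD1 and a change not called in HCT116. For ATF6 it was 0.31, with a change called lower in DLD1. HSPD1 kept this call in all 23 alternative fits, which share arrays and are not independent. ATF6 kept it whichever single array was left out but lost it in each fit without all arrays of a number, and the other 5 lost it without 1 or more single arrays.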

How the results depend on the processing

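Of 1481 comparisons of a called member with an alternative, 1225 kept the direction and the call, 256 kept the direction and lost the call, and 0 reversed. Many of these comparisons could not reverse, because the alternative left the change as it was. These were the replicate block, limma-trend, the cut of dim genes and fits of only the groups compared. Leaving out an array of a group not compared, or averaging clusters for members other than TRAP1, also left the change as it was. Genes called in HCT116 numbered 665 when only the groups compared were fitted and 1808 with the replicate block, against 1132. In DLD1 they numbered 2482 with the block and 4705 with array weights, against 1612, and for the difference 2077 and 2189, against 1307. Replicate 1 of DLD1 wild-type-only cells weighed 6.23 in that fit, against 0.436 to 1.72 for the others. Members called in HCT116 numbered 1 after quantile normalization and 1 after cyclic loess, against 2. In DLD1 they numbered 6 after either of these, 7 when only the groups compared were fitted and 19 with array weights, against 12. For the difference they numbered 11 with the block and 12 with array weights, against 7. The cause of these shifts was not tested.

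Leaving out 1 array, or all arrays of 1 number, gave 231 to 1183 genes called in HCT116, 366 to 1726 in DLD1, 277 to 1186 for the difference, 7241 to 9440 between the lines in mutant-only cells and 6976 to 9057 in wild-type-only cells. Members called ran from 1 to 3 in HCT116, 0 to 13 in DLD1, 1 to 7 for the difference, 15 to 24 between the lines in mutant-only cells and 8 to 19 in wild-type-only cells. Without all arrays numbered 1, 0 members were called in DLD1, ATF6 included, with 366 genes called in all. HSPD1 in HCT116 was called in each of these fits. For calls between the lines, the members most often lost in these 15 fits were DNAJA1 in mutant-only cells (12 fits) and HSPE1 and CALR in wild-type-only cells (9 fits each).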
